A study of Mus musculus with 3 samples.

Results

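A set of 10 genes long used to mark astrocytes was followed through single nuclei of differentiated neurosphere cultures: Gfap, S100b, Vim, Aqp4, Gja1, Aldh1l1, Aldoc, Apoe, Clu and Sparcl1. They were taken by symbol, as 10 of the 30559 genes in the deposited matrices. Neurospheres are floating clones grown from stem cells of the subventricular zone (SVZ), the germinal layer along the lateral ventricles. The question put to the 10 genes was which of them mark progenitors in these cultures, which mark astrocytes, and how each stood when a lysine acetyltransferase was missing.

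A total of 3 libraries were made, 1 per condition, each from nuclei of about 15 pooled cultures at day 15 in vitro. The control library carries the genotype label control, and which of the study's floxed lines it came from is not named. The CBP-ablated library carries the label CBPf/f (floxed Crebbp) and the p300-ablated library the label p300f/f (floxed Ep300), and both are called by these labels here. By the study's methods the SVZ cells came from newborn C57BL/6 pups and were infected with a lentivirus that carried Cre fused to mCherry, or RFP alone in controls, and nuclei were sorted on that fluorescence before 16000 were loaded per sample. The labels give tamoxifen as treatment of all 3 samples, which the methods do not mention for these cultures. Each library is a pool with no replicate, so the intervals below cover counting error only, and no p-value can be given.

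Astrocytes and the neural stem cells from which they arise share many genes. Gfap and Vim encode intermediate filament proteins that are made by radial glia, by adult SVZ stem cells and by astrocytes, while Apoe and Sparcl1 encode proteins that astrocytes secrete. Most classical markers were established on whole tissue or by staining, where stem cells, progenitors and mature astrocytes cannot always be told apart by 1 marker.

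The matrices held 4884 control, 3017 CBPf/f and 4648 p300f/f nuclei, with between 12748336 and 18876682 UMIs (unique molecular identifiers, each counted as 1 transcript) per library and a median of 3219 to 4016 per nucleus. The libraries shared 1 to 7 cell barcodes in pairs. The 73 to 191 nuclei of highest doublet score per library were called as likely doublets. Their number was set from the count of nuclei and does not measure a doublet rate. The summed level of the targeted genes does not check the labels, since 3' counts over a whole gene need not cover the part that Cre removes. Crebbp stood at 335 CPM (UMIs per 1000000 UMIs of the library) in control, 370 in the CBPf/f and 365 in the p300f/f library, and Ep300 at 114, 136 and 115 CPM. For this Ep300 line the paper cites earlier work in which Cre left no mature mRNA, and the Ep300 sum here was not lower. The labels give a floxed genotype only, so ablation is taken from the study's account of its Cre virus. The paper reports that removal of CBP and p300 was checked in differentiating cultures, and its supplementary figure shows CBP staining. The names CBPf/f and p300f/f say no more than the label.

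Nuclei were clustered with the 10 genes removed from the clustering, and the clusters were named from lists of other genes, so that the markers under study did not draw the classes. Most lists of the named classes hold genes that the study named from these same libraries. The study named its glial progenitor cluster from Mgat5 and Aqp4, and the list used here keeps Mgat5 without Aqp4. The classes that matter most here passed on all of their lists. The astrocyte-like class raised 7 of 7 markers (among them Slc1a2, Slc1a3 and Slc7a11), the glial progenitor-like class 9 of 9 and the class named RGC/PSC-like, for radial glial and pluripotent stem cells, 9 of 9. The other named classes were NPC/OPC-like (neural and oligodendrocyte precursors), committed oligodendrocyte precursor-like, oligodendrocyte-like, a class named cluster-5-like by 5 genes of its own, proliferating, neuron-like and microglia-like. Some of the 10 genes followed these classes closely. Gfap stood among the 10 genes of highest fold in the glial progenitor-like cluster and Sparcl1 among those of the astrocyte-like cluster, although neither was used to form them.

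All 1279 astrocyte-like nuclei were in the control library, 26.2% of its nuclei. The CBPf/f library held 0 of 3017 such nuclei, which allows a share of up to 0.0994%, and the p300f/f library held 0 of 4648, which allows up to 0.0645%. These limits stand for 3 nuclei, and the two-sided Clopper-Pearson intervals end at 0.122% and 0.0793%. With 1 library per condition, a class held by a single library cannot be told apart from that library. When each nucleus was instead given the class of its highest marker score, 18 CBPf/f and 66 p300f/f nuclei were called astrocyte-like, beside 1397 in control. Markers of cells that the sort could also hold were low: 5 endothelial markers summed to 34.2 to 62.2 CPM, 5 fibroblast markers to 5.58 to 6.28 CPM and 5 ependymal markers to 8.34 to 16.5 CPM over the libraries. Their part in the results was not tested.

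In GRCm38, the build of the files, Gfap spans chr11:102887336-102900912 on the minus strand, Vim chr2:13573927-13582826 and S100b chr10:76253853-76261159, both on the plus strand. Gja1 spans chr10:56377330-56402513, Aldh1l1 chr6:90486427-90600203, Aldoc chr11:78322968-78327781 and Clu chr14:65968483-65981547, all on the plus strand. Apoe spans chr7:19696109-19699188 and Sparcl1 chr5:104079111-104113733, both on the minus strand. These spans are from GENCODE. The study counted over exons and introns of its own gene annotation release, whose spans were not compared. RefSeq start regions (GRCm38.p6, from 250 bases before to 50 bases after a listed start) were at hand for 7 of the 10 genes. The windows of 4 genes are shown here: Gfap, which had its highest level in glial progenitor-like nuclei, Gja1, which was shared by progenitors and astrocytes, and Apoe and Aldh1l1, which were lower over all ablated nuclei. They run 5' to 3' along the gene, with capitals marking matches to the motifs searched on both strands.
Gfap, chr11:102897151-102897450, minus strand: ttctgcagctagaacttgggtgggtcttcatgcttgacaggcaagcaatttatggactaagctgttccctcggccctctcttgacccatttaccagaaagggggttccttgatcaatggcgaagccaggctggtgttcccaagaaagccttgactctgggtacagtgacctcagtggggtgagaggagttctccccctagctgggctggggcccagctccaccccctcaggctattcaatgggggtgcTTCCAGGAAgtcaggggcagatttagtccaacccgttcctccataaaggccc
Gja1, chr10:56377050-56377349, plus strand: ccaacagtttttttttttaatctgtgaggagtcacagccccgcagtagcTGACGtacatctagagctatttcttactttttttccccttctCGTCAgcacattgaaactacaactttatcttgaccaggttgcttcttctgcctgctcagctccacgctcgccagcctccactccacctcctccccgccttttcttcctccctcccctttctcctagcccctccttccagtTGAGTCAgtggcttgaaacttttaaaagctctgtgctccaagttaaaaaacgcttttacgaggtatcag
Apoe, chr7:19699139-19699438, minus strand: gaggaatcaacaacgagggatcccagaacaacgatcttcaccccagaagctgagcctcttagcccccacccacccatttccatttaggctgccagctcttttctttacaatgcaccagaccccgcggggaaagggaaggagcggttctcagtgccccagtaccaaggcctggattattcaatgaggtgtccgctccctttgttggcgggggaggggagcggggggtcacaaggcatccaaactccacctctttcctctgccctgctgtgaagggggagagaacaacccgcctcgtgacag
Aldh1l1, chr6:90550543-90550842, plus strand: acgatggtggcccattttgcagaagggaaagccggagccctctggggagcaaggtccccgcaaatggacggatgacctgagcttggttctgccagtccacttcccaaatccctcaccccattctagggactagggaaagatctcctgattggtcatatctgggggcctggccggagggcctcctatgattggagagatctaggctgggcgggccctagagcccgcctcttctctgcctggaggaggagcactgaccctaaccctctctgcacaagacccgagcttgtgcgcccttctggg

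The letters searched were TTGGCA (the core of a nuclear factor I site, a factor family that opens astrocyte genes), its palindrome, TGACGTCA and its core TGACG (cAMP response elements, CRE, bound by CREB, the factor after which CBP is named), TTCNNNGAA (STAT, the factors downstream of gliogenic cytokines) and TGANTCA (AP-1). The Gfap window held a STAT match that spans the listed start, from position -2, and 8.30% of the 32851 promoters in the table held such a match. This start lies inside the longer Gfap gene model of GENCODE, whose whole span a lincRNA (Gm26668, no row in the files) overlaps on the opposite strand. Gja1 held the CRE core at -201 on the plus strand and at -159 on the minus strand, and an AP-1 match at -19. These letters occur in 20.8% and 7.81% of promoters. The Apoe window at its most upstream start and the Aldh1l1 window held none of the motifs. The Aldh1l1 window, like that of Gfap, lies inside the longer GENCODE span of its gene. Among the windows not printed, S100b held TTGGCA at -19, Aldoc at -146 of its first listed start and Apoe at -57 of its most downstream listed start, the letters being present in 14.1% of promoters. The second Aldoc window held STAT matches at -124 and -83, and Vim held no match. A match is a description of letters and says nothing of binding here.

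In control nuclei the 10 genes did not behave as a single set, and they split between the glial progenitor-like and the astrocyte-like class. Levels are summed UMIs of a gene over the nuclei of a class as CPM of that class, with an exact Poisson 95% interval. They are compared for a gene across classes, not between genes. A gene is called past the fold when its log2 ratio is at least 1 in size, its interval leaves out 0 and the groups together hold at least 20 of its UMIs. Gfap, Vim, Aqp4 and Clu, 4 of the 10 genes, were past the fold towards glial progenitor-like nuclei when these were set against astrocyte-like nuclei (10.6% of the 11450 genes tested), and 2, Apoe and Sparcl1, were past it towards astrocyte-like nuclei (6.43%).

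**Figure D1:**
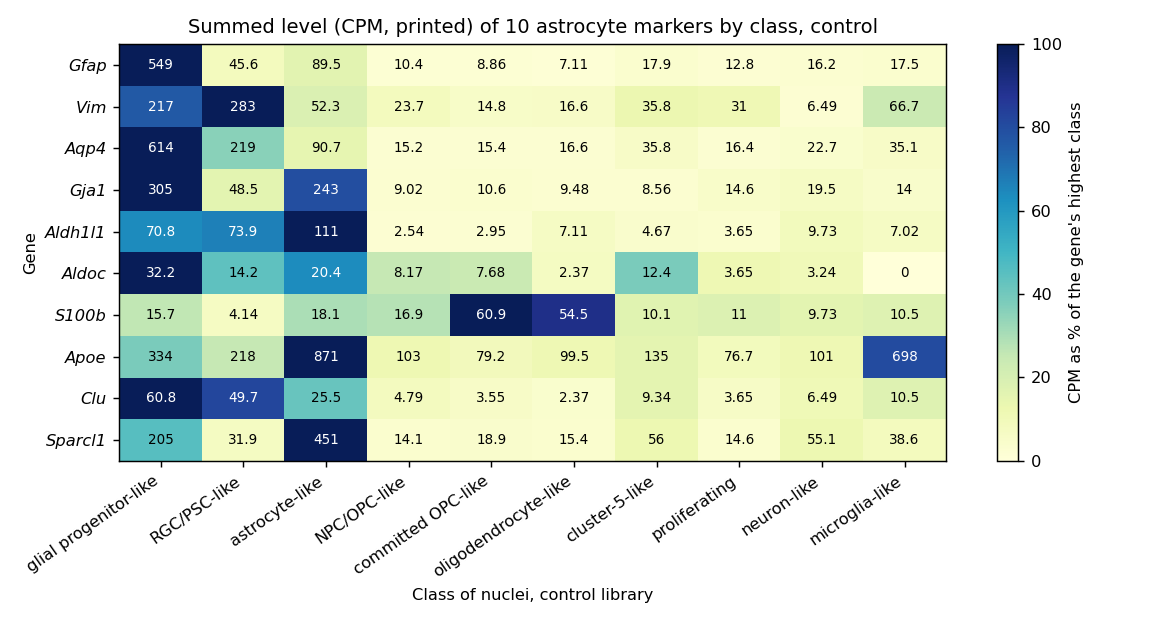
Level of each gene (rows, CPM printed in the cell) in the 10 named classes of nuclei (columns) of the control library, shaded by its share of that gene's highest class. Gfap, Aqp4, Gja1, Aldoc and Clu peaked in glial progenitor-like nuclei, Vim in RGC/PSC-like nuclei, Apoe, Sparcl1 and Aldh1l1 in astrocyte-like nuclei, and S100b in committed oligodendrocyte precursor-like nuclei. For Clu the glial progenitor-like and RGC/PSC-like classes could not be ordered.

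Among structural genes, Gfap was highest in glial progenitor-like nuclei. Its level was 549 CPM there (interval 511 to 590), 89.5 CPM in astrocyte-like nuclei (80.4 to 99.3) and 45.6 CPM in RGC/PSC-like nuclei (35.9 to 56.9). The log2 ratio of glial progenitor-like over astrocyte-like nuclei was 2.62 (2.43 to 2.80). Glial progenitor-like nuclei made up 9.54% of the control nuclei and held 56.1% of all Gfap UMIs, while astrocyte-like nuclei held 25.6%. After each nucleus was thinned to 1500 UMIs, a Gfap UMI was seen in 34.4% of glial progenitor-like and 9.86% of astrocyte-like nuclei, against 1.59% of NPC/OPC-like nuclei, a class in which the gene is not known as a marker.

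Vim, the filament protein of radial glia and other immature cells, had its highest level in another class than Gfap. It stood at 283 CPM in RGC/PSC-like nuclei (259 to 310), 217 CPM in glial progenitor-like nuclei (193 to 243) and 52.3 CPM in astrocyte-like nuclei (45.3 to 59.9), with separate intervals between all of these classes. Microglia-like nuclei, at 66.7 CPM from 19 UMIs, could not be ordered against the astrocyte-like class. The log2 ratio of glial progenitor-like over astrocyte-like nuclei was 2.05 (1.79 to 2.32).

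Aqp4, the water channel of astrocyte endfeet, was also highest in glial progenitor-like nuclei. It was at 614 CPM there, 219 CPM in RGC/PSC-like and 90.7 CPM in astrocyte-like nuclei. The log2 ratio of the first class over the last was 2.76 (2.58 to 2.94). Since the study used Aqp4 to name its glial progenitor cluster, this level is not independent of the class name. Gja1, which encodes the gap junction protein connexin 43, was shared: 305 CPM in glial progenitor-like nuclei (277 to 336) and 243 CPM in astrocyte-like nuclei (228 to 259), but 48.5 CPM in RGC/PSC-like nuclei. Its log2 ratio of 0.33 (0.16 to 0.50) between the 2 upper classes was off 0 and below the fold. Aqp4 and Gja1 thus had unlike orders across the same 3 classes, although both encode membrane channels.

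Neither enzyme gene was past the fold between glial progenitor-like and astrocyte-like nuclei, with log2 ratios of -0.65 for Aldh1l1 and 0.66 for Aldoc. Aldh1l1, a folate enzyme and a common astrocyte reporter gene, stood at 111 CPM in astrocyte-like nuclei (101 to 122), 73.9 CPM in RGC/PSC-like nuclei (61.5 to 88.1) and 70.8 CPM in glial progenitor-like nuclei (57.6 to 86.2). The last 2 classes could not be ordered. Aldoc, the brain isoform of the glycolytic enzyme aldolase, had few UMIs in every class, at 32.2 CPM in glial progenitor-like nuclei (23.5 to 43.1) and 20.4 CPM in astrocyte-like nuclei (16.2 to 25.4). In RGC/PSC-like nuclei Aldoc was at 14.2 CPM from 24 UMIs. That was past the fold below glial progenitor-like nuclei, with a log2 ratio of -1.18 (-1.96 to -0.44). The lincRNA Gm45901 overlaps Aldh1l1 on the same strand over 33054 bases and had 0 to 1 UMI per library. The effect of this overlap on the Aldh1l1 counts was not tested.

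S100b, which encodes a calcium-binding protein widely stained as a sign of mature astrocytes, marked another lineage in these nuclei. In control its highest levels were in committed oligodendrocyte precursor-like nuclei, 60.9 CPM (49.7 to 73.8), and oligodendrocyte-like nuclei, 54.5 CPM (39.9 to 72.7), which could not be ordered. Astrocyte-like nuclei had 18.1 CPM (14.1 to 22.8), NPC/OPC-like nuclei 16.9 and glial progenitor-like nuclei 15.7 CPM. RGC/PSC-like nuclei had 4.14 CPM from 7 UMIs. The same 2 oligodendroglial classes were highest in the CBPf/f library, at 50.8 and 42.4 CPM, and in the p300f/f library, at 57.6 and 69.1 CPM. The end of S100b overlaps Dip2a on the opposite strand over 1731 bases, and whether counting used strand is not given in the sources used here. Dip2a stood at 91.0 CPM in control committed oligodendrocyte precursor-like nuclei and 77.5 CPM in astrocyte-like nuclei.

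The secreted genes split as well. Apoe, the lipid carrier of brain, was at 871 CPM in astrocyte-like nuclei (842 to 901), 698 CPM in microglia-like nuclei (605 to 802), 334 CPM in glial progenitor-like nuclei (304 to 366) and 218 CPM in RGC/PSC-like nuclei (197 to 242). Sparcl1, which encodes the synapse-promoting protein hevin, was at 451 CPM in astrocyte-like nuclei (430 to 472), 205 CPM in glial progenitor-like nuclei (182 to 230) and 31.9 CPM in RGC/PSC-like nuclei (24.0 to 41.7). Both were past the fold towards astrocyte-like nuclei, with log2 ratios of glial progenitor-like over astrocyte-like nuclei of -1.38 (-1.53 to -1.24) and -1.14 (-1.32 to -0.96). Clu, the gene of the chaperone clusterin, went the other way. It was at 60.8 CPM in glial progenitor-like nuclei (48.6 to 75.2), 49.7 in RGC/PSC-like and 25.5 in astrocyte-like nuclei (20.7 to 31.0). The log2 ratio of the first class over the last was 1.25 (0.82 to 1.69). Glial progenitor-like and RGC/PSC-like nuclei could not be ordered for Clu, with a log2 ratio of the latter over the former of -0.29 (-0.74 to 0.16).

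RNA that floats free in a droplet gives every class a low level of the genes of the most abundant cells, and this sets a floor for reading the other classes. Slc7a11, a marker that led the astrocyte-like class, was present in the 7 classes outside the glial progenitor-like, RGC/PSC-like and astrocyte-like ones at 1.59% to 7.52% of its astrocyte-like level. In the same classes Gja1 stood at 3.52% to 8.01% of its own astrocyte-like level, Aldh1l1 at 2.29% to 8.78% and Sparcl1 at 3.13% to 12.4%. Relative to astrocyte-like nuclei, Gja1 and Aldh1l1 thus lay close to the range of Slc7a11, and Sparcl1 reached above it. Apoe was at 8.80% to 80.2%, its upper end being the microglia-like class, and S100b at 53.8% to 336%. The part of free RNA in these low levels was not tested.

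The progenitor classes differed from each other in Gfap, Aqp4, Gja1 and Sparcl1 in every library. When RGC/PSC-like nuclei were set against glial progenitor-like nuclei, 6 of the 10 genes were past the fold downwards in control (5.52% of genes tested), 6 in the CBPf/f library (6.13%) and 6 in the p300f/f library (7.38%). The 4 genes just named were among the 6 each time. For Gfap the log2 ratio was -3.59 (-3.95 to -3.25) in control, -2.53 (-2.72 to -2.34) in the CBPf/f and -3.71 (-3.96 to -3.47) in the p300f/f library. Vim was higher in RGC/PSC-like nuclei each time, by less than the fold, with log2 ratios of 0.39, 0.77 and 0.23.

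Over all nuclei of a library, Apoe, Sparcl1 and Aldh1l1 were lower past the fold in both ablated libraries. In bulk sums of this kind, fewer cells of a type and less RNA per cell cannot be told apart. Of the 10 genes, 3 were past the fold downwards in the CBPf/f library (5.15% of 15930 genes tested) and the same 3 in the p300f/f library (3.44% of 16274). Both comparisons use the same control library. No member was past the fold upwards in the CBPf/f library (3.81%) or in the p300f/f library (1.38%). The median log2 ratio of the 10 was -0.37 and -0.59 in CBPf/f and p300f/f nuclei, beside 0.05 and -0.04 over all genes.

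Apoe stood at 342 CPM in control, 91.5 CPM in the CBPf/f and 87.6 CPM in the p300f/f library, with log2 ratios over control of -1.90 (-1.99 to -1.81) and -1.96 (-2.04 to -1.88). Sparcl1 stood at 149, 34.0 and 24.1 CPM, with log2 ratios of -2.13 (-2.28 to -1.98) and -2.63 (-2.78 to -2.48). Aldh1l1 stood at 44.1, 14.3 and 21.3 CPM, with log2 ratios of -1.62 (-1.86 to -1.38) and -1.05 (-1.23 to -0.87). Control was the highest library for each of these genes, with no overlap of intervals. Gja1, at 99.5, 55.1 and 55.3 CPM, was lower in both ablated libraries by less than the fold, with log2 ratios of -0.85 (-0.98 to -0.72) and -0.85 (-0.96 to -0.73). Aldoc was at 13.7, 7.30 and 8.48 CPM. The 7 microglial markers, which go with the Apoe of microglia, summed to 153, 87.0 and 78.8 CPM, and the antisense gene Gm26703, which overlaps Sparcl1, held 63, 12 and 6 UMIs. Their part in these differences was not tested.

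The filament genes, Aqp4 and Clu did not share this difference. Gfap was at 83.9 CPM in control, 152 CPM in the CBPf/f and 86.7 CPM in the p300f/f library. Its log2 ratio was 0.86 (0.76 to 0.96) in the CBPf/f and 0.05 (-0.06 to 0.15) in the p300f/f library. Vim was at 78.8, 86.1 and 110 CPM, Aqp4 at 113, 125 and 124 CPM and Clu at 20.4, 22.0 and 22.7 CPM, so that none of the 3 was lower in an ablated library. When the ablated libraries were set against each other over all nuclei, no gene of the 10 was past the fold downwards in the CBPf/f library (3.19%), and the largest ratios were S100b at 0.94 (0.71 to 1.16) and Gfap at 0.81 (0.72 to 0.91).

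S100b moved in opposite directions, at 21.0 CPM in control, 28.8 in the CBPf/f and 15.0 in the p300f/f library, with log2 ratios over control of 0.46 (0.24 to 0.67) and -0.48 (-0.71 to -0.25). The oligodendroglial classes, where it was highest, differed in size between libraries. Committed oligodendrocyte precursor-like nuclei made up 8.15% of control, 20.3% of CBPf/f and 5.16% of p300f/f nuclei, and oligodendrocyte-like nuclei 3.28%, 16.1% and 4.15%. These classes held 39.2% and 34.1% of the S100b UMIs of CBPf/f nuclei, 30.1% and 13.5% of those of control and 23.9% and 28.9% of those of p300f/f nuclei. Within committed oligodendrocyte precursor-like nuclei S100b was at 60.9, 50.8 and 57.6 CPM, with overlapping intervals. Dip2a, on the other strand, was at 86.0, 142 and 98.0 CPM over all nuclei, and its part in the S100b values was not tested.

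**Figure D2:**
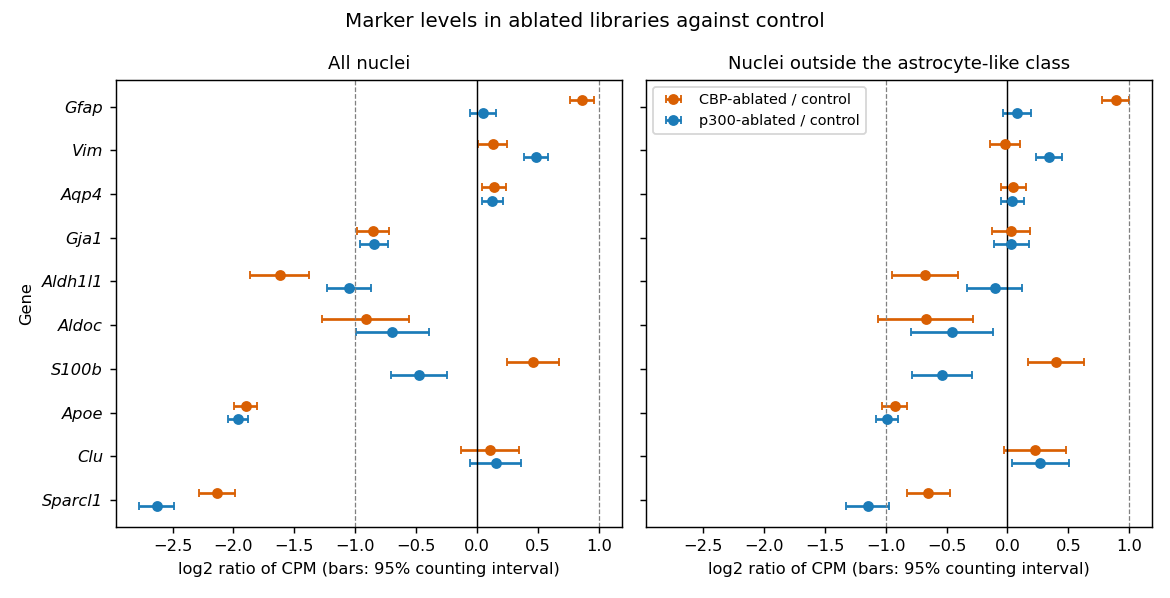
Log2 ratio of CPM of each gene (rows) in the CBPf/f (orange) and p300f/f (blue) library over control, in all nuclei (left) and in nuclei outside the astrocyte-like class (right), with 95% counting intervals and dashed lines at the fold. Apoe, Sparcl1 and Aldh1l1 lie beyond the left line over all nuclei, and outside the astrocyte-like class only Sparcl1 in the p300f/f library does.

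The comparison was repeated without the 1279 astrocyte-like nuclei of control, which held 61.4% of its Apoe, 72.8% of its Sparcl1, 60.5% of its Aldh1l1 and 58.7% of its Gja1 UMIs but 24.1% of all UMIs. Outside that class 0 of the 10 genes were past the fold downwards in the CBPf/f library (3.44% of 15561 genes tested) and 1, Sparcl1, in the p300f/f library (2.15% of 15971). Gja1 was then at 54.1 CPM in control, 55.1 in the CBPf/f and 55.3 in the p300f/f library, with both log2 ratios at 0.03. Apoe was still lower, at 174, 91.5 and 87.6 CPM, with log2 ratios of -0.93 (-1.03 to -0.82) and -0.99 (-1.08 to -0.89). Sparcl1 was at 53.3, 34.0 and 24.1 CPM, with log2 ratios of -0.65 (-0.83 to -0.47) and -1.15 (-1.32 to -0.97). Gfap kept its ratio of 0.89 (0.78 to 1.00) in the CBPf/f library. Aldh1l1 was at 22.9 CPM in control, 14.3 in CBPf/f and 21.3 in p300f/f nuclei, with log2 ratios of -0.68 (-0.95 to -0.40) and -0.11 (-0.33 to 0.12). The p300 ratio of Sparcl1 lay between -1.16 and -0.83 over the other ways of processing, and it was below the fold with classes from the marker score, with 10% of each library's profile subtracted as free RNA and without called doublets.

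**Figure D3:**
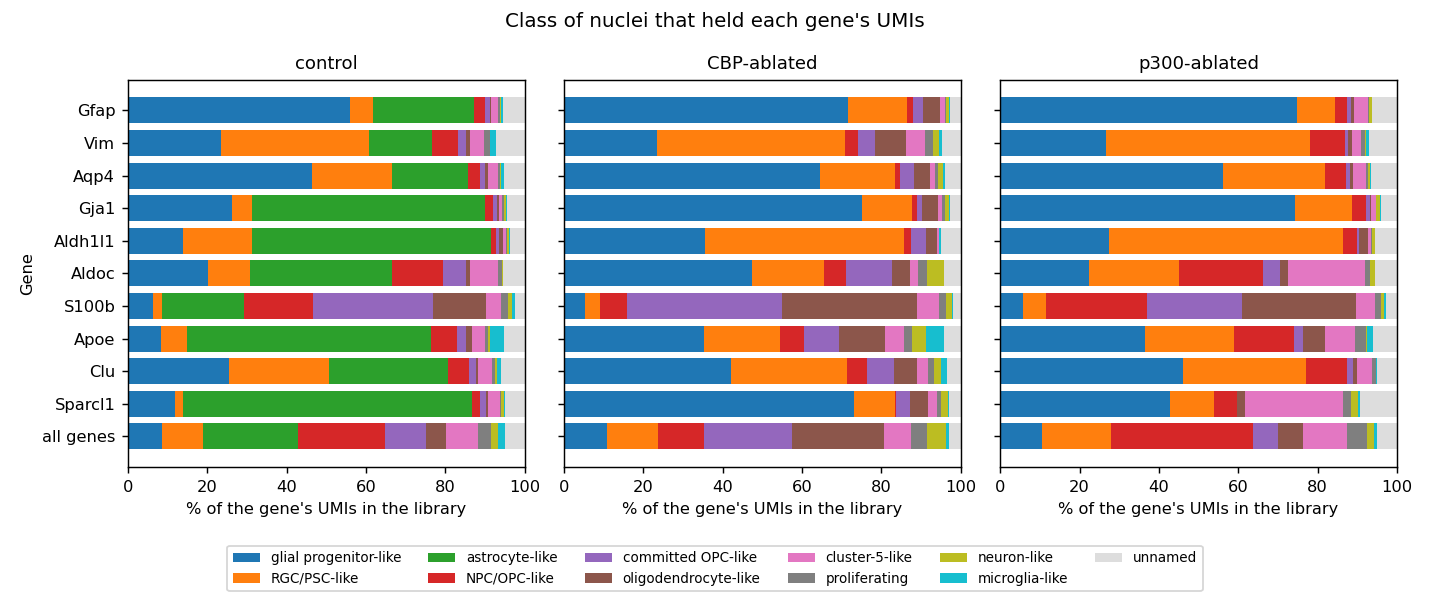
Share of each gene's UMIs (horizontal axis, percent) that came from each class of nuclei in the 3 libraries, with all genes together in the last bar. In control the astrocyte-like class held most UMIs of Apoe, Sparcl1, Aldh1l1 and Gja1 and the glial progenitor-like class most of Gfap, while S100b lay mainly outside both.

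Within glial progenitor-like nuclei (466 control, 391 CBPf/f and 585 p300f/f) most levels stayed within the fold. In control 5 of the genes had their highest level in this class, of which Clu could not be ordered against RGC/PSC-like nuclei. In the CBPf/f library 0 of the 10 genes were past the fold downwards (1.95% of genes tested), and in the p300f/f library 1 was (1.22%), again Sparcl1. Sparcl1 stood at 205 CPM in control (182 to 230), 229 CPM in the CBPf/f (205 to 256) and 97.7 CPM in the p300f/f library (84.4 to 112), so that the p300f/f library alone was low. Its log2 ratio over control was 0.16 (-0.07 to 0.40) in the CBPf/f and -1.07 (-1.34 to -0.80) in the p300f/f library. Set against each other directly, CBPf/f nuclei exceeded p300f/f nuclei by a log2 ratio of 1.23, with a lower bound of 0.97, the 1 member past the fold upwards in that comparison (1.78%). The share of nuclei with a Sparcl1 UMI, thinned to 1500 UMIs, was 22.1% in control, 22.2% in the CBPf/f and 9.38% in the p300f/f library, and without thinning 33.7%, 34.8% and 16.6%. In NPC/OPC-like nuclei the thinned shares were under 2% in each library. The ratio over control in the p300f/f library lay between -1.24 and -0.78 over the other ways of processing, so its place on either side of the fold was not fixed.

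Gfap was higher in the CBPf/f glial progenitor-like nuclei. It stood at 549 CPM in control (511 to 590), 1004 CPM in the CBPf/f (952 to 1059) and 617 CPM in the p300f/f library (583 to 653), and only the CBPf/f library lay far above the others. The log2 ratios over control were 0.87 (0.74 to 1.00) and 0.17 (0.04 to 0.30), with 0.78 to 1.07 and -0.06 to 0.62 over the other ways of processing. A Gfap UMI was seen in 55.3% of thinned CBPf/f nuclei (Clopper-Pearson interval 50.2% to 60.3%), against 34.4% in control and 39.3% in p300f/f nuclei, whose intervals ended at 38.9% and 43.5%. The matching shares in NPC/OPC-like nuclei were 1.59%, 3.16% and 1.04%. Without thinning, Gfap was seen in 45.3% of control, 70.6% of CBPf/f and 50.1% of p300f/f glial progenitor-like nuclei, whose medians were 2914.5, 3495 and 3389 UMIs.

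Among the other members of this class, Apoe was at 334, 298 and 303 CPM with overlapping intervals. Clu was higher in both ablated libraries, at 60.8, 85.3 and 99.2 CPM, with log2 ratios of 0.49 (0.07 to 0.91) and 0.71 (0.33 to 1.09). Gja1 was at 305, 381 and 391 CPM, with ratios of 0.32 (0.13 to 0.51) and 0.36 (0.18 to 0.53). Aldh1l1 was at 70.8, 47.0 and 55.4 CPM and Aldoc at 32.2, 31.8 and 18.1 CPM, the last with a log2 ratio of -0.83. S100b was seen in 22 UMIs in control, 19 in CBPf/f and 16 in p300f/f nuclei. Its p300 ratio of -0.97 (-1.99 to 0.03) did not leave out 0, and it was past the fold under 5 other ways of processing, over which and the rest it lay between -1.32 and -0.58.

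**Figure D4:**
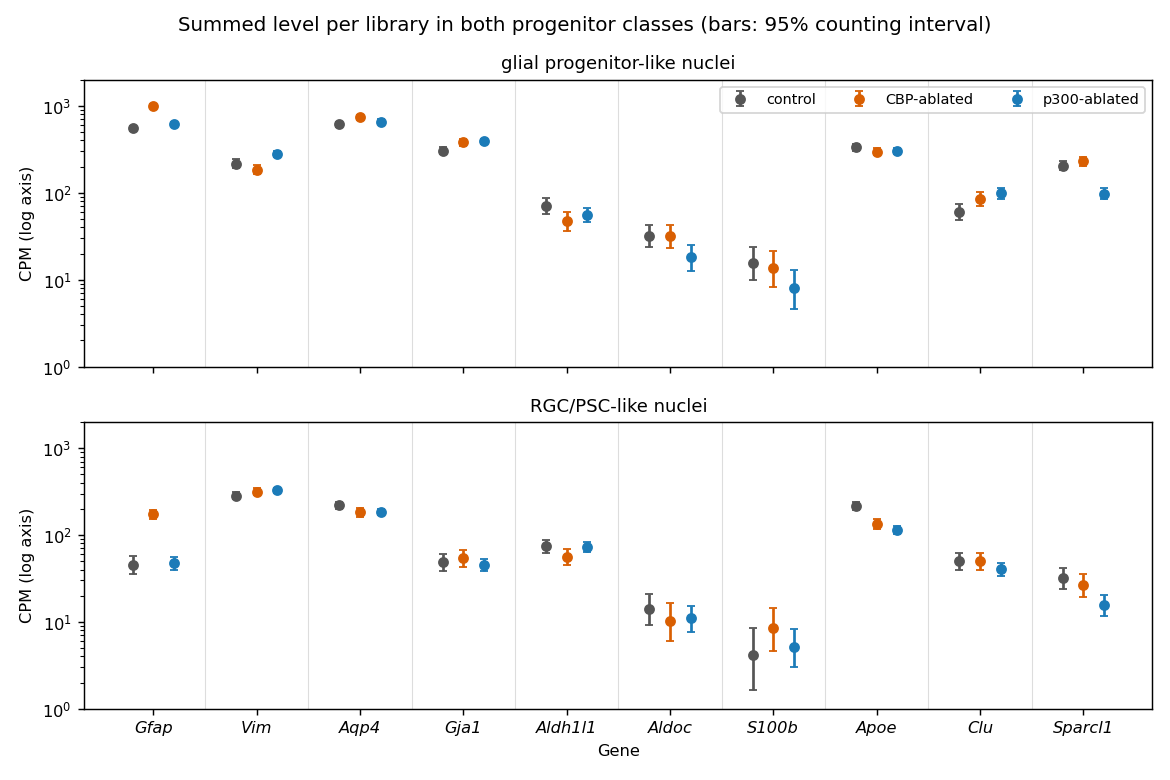
CPM (log axis) of each gene in glial progenitor-like nuclei (top) and RGC/PSC-like nuclei (bottom) of the control (grey), CBPf/f (orange) and p300f/f (blue) library, with 95% counting intervals. Gfap is highest in the CBPf/f library in both classes, 1004 and 174 CPM, and Sparcl1 lowest in the p300f/f library, 97.7 and 15.6 CPM, an order that turned in RGC/PSC-like nuclei with libraries clustered separately or nuclei thinned.

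In RGC/PSC-like nuclei (481, 399 and 822) Gfap differed most. Gfap was at 45.6 CPM in control (35.9 to 56.9), 174 CPM in the CBPf/f (155 to 196) and 47.1 CPM in the p300f/f library (40.0 to 55.2). The CBPf/f library was thus apart from the other 2, with a log2 ratio over control of 1.94 (1.57 to 2.32) and over the p300f/f library of 1.89 (1.60 to 2.18). It was the 1 member past the fold upwards over control (1.98%) and over the p300f/f library (2.0%). The size of the difference moved with the processing, and the cause was not tested. With each library clustered by itself the log2 ratio over control was 1.00 (0.54 to 1.47), with nuclei thinned to 1500 UMIs it was 1.04 (0.47 to 1.61), and with glial progenitor-like and RGC/PSC-like nuclei combined, an alternative chosen after seeing the data, it was 1.02 (0.90 to 1.14).

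Downwards, 0 of the 10 genes were past the fold in CBPf/f RGC/PSC-like nuclei (2.15%) and 1, Sparcl1, in p300f/f ones (1.48%), at 31.9 CPM in control, 26.7 in the CBPf/f and 15.6 in the p300f/f library. That p300 ratio of -1.03 (-1.61 to -0.45) rested on 54 and 51 UMIs, and it was -0.80 at a coarser clustering, -0.62 with each library clustered by itself, -0.74 without called doublets, and -0.75 and -0.38 with 5% and 10% of the library profile subtracted. The CBPf/f ratio of Sparcl1 there, -0.26 (-0.87 to 0.34), moved as well: it was -0.99 with each library clustered by itself, -0.96 with classes from the marker score, past the fold after thinning, and 0.43 with 10% of the profile subtracted. With each library clustered by itself, and after thinning, it was thus the CBPf/f library that had the lower Sparcl1 ratio in this class. Apoe was lower in both ablated libraries, at 218 CPM in control (197 to 242), 135 CPM in the CBPf/f (118 to 154) and 114 CPM in the p300f/f library (103 to 126), below the fold. Vim, the gene that peaked in this class, was at 283, 316 and 328 CPM.

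Apoe and Sparcl1 were also lower in ablated NPC/OPC-like nuclei, where 2 of 9 genes with enough UMIs were past the fold downwards in the CBPf/f library (1.71%) and 2 of 10 in the p300f/f library (1.5%). Apoe was at 103, 47.8 and 37.1 CPM, with log2 ratios of -1.10 (-1.49 to -0.73) and -1.47 (-1.71 to -1.23). Sparcl1 had 50 UMIs in control, 1 in the CBPf/f and 26 in the p300f/f library, with log2 ratios of -4.37 (-9.70 to -1.82) and -1.88 (-2.62 to -1.16). The astrocyte-like marker Slc7a11, which is likewise at a low level there, moved with them: outside the astrocyte-like class it was at 71.4 CPM in control, 8.63 CPM in the CBPf/f and 10.3 CPM in the p300f/f library. The part of free RNA from the astrocyte-like nuclei of control in these differences was not tested. Other classes held calls as well. In CBPf/f committed oligodendrocyte precursor-like nuclei 3 of 9 members were past the fold downwards (2.95%) and 1 upwards (2.73%). In oligodendrocyte-like nuclei 2 of 7 were past it downwards (1.80%) and 1 upwards (3.16%). In cluster-5-like nuclei 2 of 7 were (5.20%) and 1 upwards (5.69%), and in neuron-like nuclei 1 of 5 each way (2.67% and 2.96%). In p300f/f committed oligodendrocyte precursor-like nuclei 2 of 8 were past the fold downwards (1.88%) and in oligodendrocyte-like nuclei 0 of 5 (1.64%). In cluster-5-like nuclei 1 of 9 was (2.08%), in neuron-like nuclei 1 of 2 (3.74%) and in microglia-like nuclei 1 of 2 (2.98%). In microglia-like nuclei Apoe was at 698, 492 and 163 CPM, from 199, 51 and 23 UMIs.

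**Figure D5:**
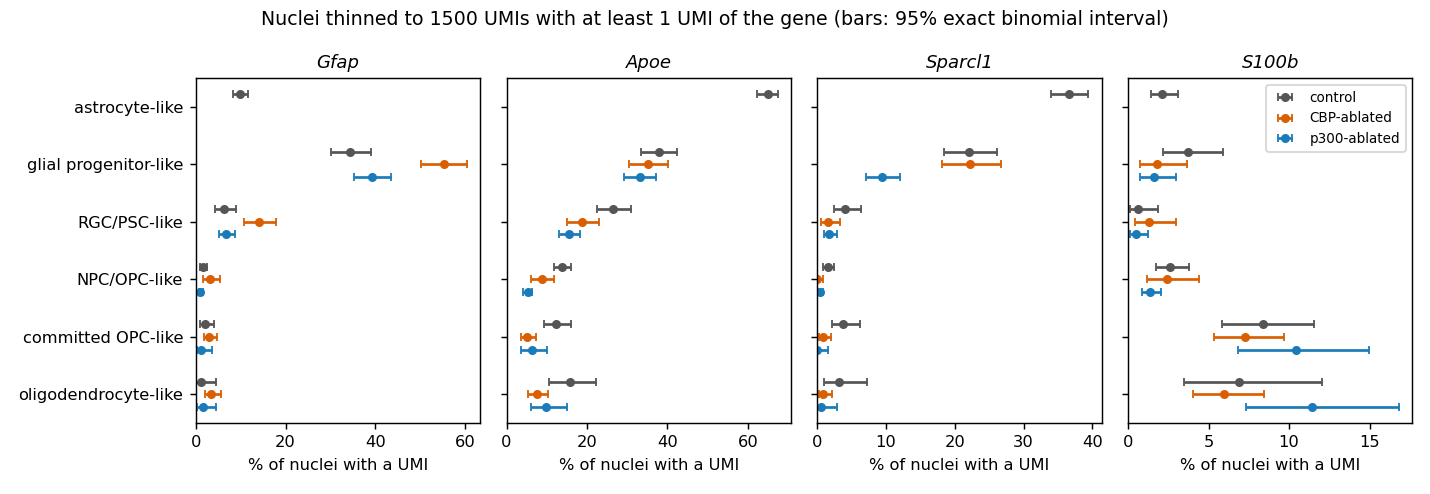
Percent of nuclei with at least 1 UMI of Gfap, Apoe, Sparcl1 and S100b (panels) in 6 classes (rows) after thinning to 1500 UMIs, by library, with exact binomial 95% intervals. For Gfap the CBPf/f library is highest in glial progenitor-like nuclei, 55.3%, and S100b is most frequent in the 2 oligodendroglial classes of every library.

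Per nucleus the markers were sparse, and few nuclei showed many of them. At 1500 UMIs a control astrocyte-like nucleus had UMIs of 1.79 of the 10 genes on average and a glial progenitor-like nucleus of 2.34. The latter was 2.60 in the CBPf/f and 2.30 in the p300f/f library. At least 4 of the genes were seen in 6.55% of control astrocyte-like nuclei (5.25% to 8.05%) and 17.3% of control glial progenitor-like nuclei (13.9% to 21.1%). That share was 25.3% in CBPf/f, with a lower bound of 21.1%, and 17.3% (14.3% to 20.7%) in p300f/f glial progenitor-like nuclei. At equal depth, more of these markers were thus seen per glial progenitor-like nucleus than per astrocyte-like nucleus of control.

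Among glial progenitor-like nuclei, those with a Gfap UMI more often had one of Sparcl1. In control the share with Sparcl1 was 31.2% (24.1% to 39.1%) with Gfap and 17.3% (13.2% to 22.1%) without. It was 28.5% and 14.5% in the CBPf/f library and 15.3% and 5.54% in the p300f/f library, with separate intervals in each. Nuclei of a library are not replicates. For Aqp4 the control shares were 54.1% with Gfap and 55.0% without.

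Across the 28 points given by classes of at least 50 nuclei in each library, the patterns of the genes followed the split in control only in part. These points share libraries and depth, and the correlations of log2(CPM + 1) are given as descriptions. Aqp4 and Clu were the most alike pair, with a Pearson r of 0.95, followed by Aqp4 and Gja1 at 0.89 and Clu and Vim at 0.86. S100b ran against Vim, with an r of -0.48, and against Clu, at -0.40. Over 11282 genes, the closest to Gfap were Gpam, itself on the list that named glial progenitor-like nuclei, Id4 and Cspp1 (r of 0.93, 0.90 and 0.89). The closest to S100b were Pcyt2, Mpzl1 and Bfsp2 (0.90, 0.89 and 0.89), to Vim Slc7a2, Col4a5 and Fas (0.95, 0.92 and 0.92), to Aqp4 Pygb, Clu and Mt1 (0.96, 0.95 and 0.95), and to Gja1 Atl2, Pygb and Prdx6 (0.90, 0.90 and 0.89). Those of Aldh1l1 were Ephx1, Gm13832 and Otx2os1 (0.92, 0.90 and 0.90), of Aldoc Mboat2, Stox2 and Hdhd5 (0.90, 0.89 and 0.87), of Apoe Grina, Gna13 and Selenop (0.90, 0.89 and 0.89), of Clu Aqp4, Mt1 and Pard3b (0.95, 0.95 and 0.94) and of Sparcl1 Slc6a11, Grk3 and Slc27a1 (0.81, 0.80 and 0.79).

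Other genes of the same lineages were read from 3 further lists. Of 20 other astrocyte genes, such as transporters and junction proteins, 10 were past the fold downwards over all nuclei in the CBPf/f library (5.15% of all genes tested) and 6 in the p300f/f library (3.44%), with median log2 ratios of -0.93 and -0.67, beside 0.05 and -0.04 over all genes. Outside the astrocyte-like class 3 (3.44%) and 1 (2.15%) were. Cbs, an enzyme of sulphur amino acid metabolism, was at 14.2 CPM in control, 2.43 in the CBPf/f and 3.76 in the p300f/f library. Gjb6, which encodes connexin 30, was at 3.98, 0.863 and 0.424 CPM, while the receptor gene Gpr37l1 was at 15.5, 14.2 and 15.8 CPM. At the other end of the list were Ttyh1 in the CBPf/f library, at 117 and 106 CPM, and Ntsr2 in the p300f/f library, at 5.15 and 8.26 CPM. Within glial progenitor-like nuclei 0 of the 18 with enough UMIs were past the fold in either direction in either library. The shares of all genes there were 1.95% downwards and 2.71% upwards in CBPf/f nuclei, and 1.22% and 2.61% in p300f/f nuclei. At such shares a count of 0 in 18 genes says little.

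Of 10 stem and progenitor genes, 9 had enough UMIs over all nuclei. In the CBPf/f library 1 was past the fold upwards (3.81% of all genes tested), Prom1, which encodes the stem cell surface protein CD133, at 10.7 CPM in control and 33.2 CPM, and 1 downwards (5.15%), Fabp7, a fatty acid binding protein of radial glia, at 39.8 and 17.0 CPM. Outside the astrocyte-like class Prom1 and Hopx were past it upwards in CBPf/f nuclei (2.64%) and none downwards (3.44%). In the p300f/f library none was past the fold in all nuclei (3.44% downwards, 1.38% upwards) or outside that class (2.15% and 0.939%). The smallest and largest ratios there were Fabp7 at -0.76, Hopx at -0.55, Synm at 0.62 and the filament gene Nes at 0.74, and in the CBPf/f library the next were Synm at -0.71 and Hopx at 0.82. In RGC/PSC-like nuclei Tnc, a matrix protein gene, was past the fold upwards in CBPf/f (1.98%), at 81.6 and 180 CPM, and Prom1 downwards in p300f/f nuclei (1.48%), at 8.87 and 2.75 CPM.

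Of 10 genes of reactive astrocytes, the state in which Gfap rises in injured brain, 6 had enough UMIs in the CBPf/f comparison over all nuclei. Of these, 0 were past the fold (3.81% of all genes upwards, 5.15% downwards). The ratios ran from Osmr at -0.07 and Cd44 at 0.21 to C4b at 0.66 and Serpina3n at 0.87. In the p300f/f comparison 7 had enough and 2 were past the fold upwards (1.38%). These were C4b at 9.20 and 18.8 CPM and Serpina3n at 2.02 and 4.93 CPM, with Cd44 at -0.27 and Osmr at -0.07 at the lower end. Outside the astrocyte-like class 1 of 7 was past it upwards in p300f/f nuclei (0.939%) and 0 of 6 in CBPf/f nuclei (2.64%). The median log2 ratio of the list in p300f/f nuclei was 0.78 over all nuclei and 0.45 outside that class. Within RGC/PSC-like nuclei 2 of 4 with enough UMIs, S1pr3 and C4b, were past the fold upwards in CBPf/f nuclei (1.98%), at 16.0 and 35.8 CPM and at 2.96 and 10.3 CPM. In glial progenitor-like nuclei 1 of 6, S1pr3, was past it upwards in p300f/f nuclei (2.61%), at 21.5 and 58.9 CPM. In control, glial progenitor-like nuclei exceeded astrocyte-like nuclei past the fold (10.6% of all genes tested) for 5 of 8 stem genes with enough UMIs (Nes, Hopx, Tnc, Prom1 and Id4), for 4 of 4 reactive genes (Osmr, S1pr3, Cd44 and C4b) and for 1 of the 20 other astrocyte genes (Ntsr2). Genes of the latter list that were past the fold towards astrocyte-like nuclei (6.43%) included Mfge8, S1pr1 and Cbs.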

How the data were processed

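Nuclei of differentiated SVZ neurospheres were profiled with 10x 3' v3 chemistry. The deposited matrices hold UMI counts per gene and nucleus, which the authors made with Cell Ranger 3.1 on GRCm38 (mm10) with a reference that counts exons and introns. Seurat 2.3.4 and FastQC 0.11.9 are also named for the study. Strand use in counting is not given in the sources used here.

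Counts were used as deposited, with 500 or more UMIs in every nucleus and no further filter. Nuclei of the 3 libraries were clustered together in Seurat 5.3.0 (R 4.3.3): log-normalisation to 10000, the 1000 most dispersed genes per library, less 5 of the 10 genes of interest among them, 20 principal components, 30 neighbours and Louvain resolution 0.6. A cluster was named when at least 60% and at least 3 markers of a list were present in at least 10% of its nuclei at 2 times the level of other nuclei. Nuclei were scored with Scrublet in scanpy 1.11.5, and those of highest score were called doublets, up to a number set from the nuclei of the library. Called doublets were kept, apart from 1 alternative without them. UMIs were summed per library and class with numpy 2.4.6 and scipy 1.17.1. Levels have exact Poisson intervals, ratios conditional binomial intervals and shares Clopper-Pearson intervals, all at 95% and for counting error only. Nuclei under 1500 UMIs were left out of thinned shares, which left 4636, 2922 and 4513. A count of 0 was read against a floor of 3 counts per library. Genes with at least 20 UMIs in both groups together were tested against the fold, over all genes. No p-value was computed, since each condition has 1 library.

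The members and the other lists were chosen with earlier results of these data known. All 10 members are named, with the 3 genes most like each by Pearson r and the extremes of each further list, and genes named beside a small count of calls were named after their values were seen. Calls and intervals were tried on simulated Poisson counts drawn from control levels, with set fold changes. That is the counting model the intervals assume, so the trial does not cover differences between libraries or errors in classes. Promoters are from RefSeq (7 of 10 genes matched). Alternatives changed the clustering, class rule, free RNA, doublets, depth and centring. The values of 1 gene of the further lists are not reported here.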

Additional observations from a re-analysis of the deposited data

Results flagged for a closer look

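S100b differed from control in opposite directions in the ablated libraries. Over all nuclei its log2 ratio was 0.46 in the CBPf/f and -0.48 in the p300f/f library, and outside the astrocyte-like class it was 0.40 and -0.54. Both ratios use the same control library, and the difference between them was not tested, since each condition has 1 library. Committed oligodendrocyte precursor-like nuclei, where S100b was high in every library, made up 8.15% of control, 20.3% of CBPf/f and 5.16% of p300f/f nuclei. Oligodendrocyte-like nuclei, where it was high as well, numbered 160 of 4884 in control, 486 of 3017 in CBPf/f and 193 of 4648 in p300f/f. That class was thus not a smaller share of the p300f/f library, and the part of class sizes in the S100b ratios was not tested.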

How the results depend on the processing

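Each count of members past the fold was recomputed under up to 14 other settings, which gave 131 counts, of which 113 stayed within 1.5 times the reported one. Over 1070 recomputed values of 100 single ratios, no ratio past the fold changed sign. The count of members lower in CBPf/f RGC/PSC-like nuclei went from 0 to 1 (Sparcl1) when nuclei were thinned. For p300f/f nuclei outside the astrocyte-like class it went from 1 to 0 with classes from the highest marker score, with 10% free RNA subtracted and with doublets left out. For p300f/f glial progenitor-like nuclei it went from 1 to 2 (S100b and Sparcl1) with members kept among the variable genes, at resolution 1.2, with the highest marker score, after thinning and after centring. It went to 0 without the variable genes that differ between libraries, with libraries clustered separately and with 10% free RNA subtracted. For p300f/f RGC/PSC-like nuclei it went to 0 at resolution 0.3, with libraries clustered separately, with 5% and 10% free RNA subtracted and without doublets. In control, members higher in astrocyte-like than in glial progenitor-like nuclei went from 2 to 1 (Apoe) at resolution 1.2. The cause of these shifts was not tested. The setting that combines both progenitor classes was chosen after seeing the data. No paired analysis was possible because each condition has 1 library. With few UMIs per class, S100b and Aldoc had wide intervals within single classes.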
